A study of Mus musculus with 4 samples.

Results

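T cells of the IL-4 reporter sort that carried Il13 transcripts were divided into cycling and resting cells, and the 2 sides were compared within each of 3 mice. A cell was taken as Il13+ when it had 500 or more genes, at most 10% mitochondrial UMIs, no Cd79a UMI and 2 or more Il13 UMIs (a UMI is 1 counted RNA molecule). It was cycling when its summed UMIs of 8 genes of mitosis (Mki67, Top2a, Birc5, Ube2c, Nusap1, Hmmr, Cdca8 and Ccnb2, the sorting genes) reached 8, and resting when the sum was 1 or 0. Its mouse was read from the hashtag antibody counts (top hashtag 10 or more and at least 3 times the second). The members were thus selected on measured Il13, Cd79a and mitotic transcripts, which are no result here. In all 525 cells were members, 295 cycling and 230 resting, of 11602 cell barcodes in the series and 7646 in this sort. Another 138 Il13+ cells with a mouse had a sum of 2 to 7 and form a middle group, and 69 of the 732 Il13+ cells had no clear mouse.

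Both sides came from the same 3 animals and 1 lane of the 10x Genomics system. The animals were C57BL/6 4get mice, an IL-4 reporter strain in which GFP is made from the Il4 locus, so the sort keeps cells whose Il4 locus has been active whether or not Il4 RNA is present at harvest. All had received 10 µg of an extract of the mould Alternaria alternata with 25 µg of the antigen NP-OVA through the nose, and mediastinal lymph nodes were taken on day 7. TCRβ+ CD4+ CD44+ GFP+ cells were sorted and then restimulated for 30 min with PMA and ionomycin, drugs that bypass the T cell receptor, so every cytokine level here is a level after restimulation. No unstimulated or unimmunized cells were analysed here, and ages and sexes are not given in the labels used here. A second population of the series, sorted as T follicular helper (Tfh) cells, entered no comparison, and 1 barcode was written the same in both.

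IL-13 is a type 2 cytokine that acts on epithelium, smooth muscle and B cells. T cells that make it share the transcription factor GATA3 and often other cytokines such as IL-4 and IL-5. After antigen contact a helper T cell divides repeatedly, growing and copying its DNA before each mitosis, and leaves the cycle again as an effector or memory cell. Mitotic genes are transcribed in the last part of the cycle and are largely silent in cells out of cycle.

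The sides differed in the depth of their cells as well as in the sorting genes. Median UMIs per cell were 7686, 8147 and 7249.5 in resting and 24982, 27602 and 32772 in cycling cells of mice 1, 2 and 3, ratios of 3.25, 3.39 and 4.52. Median genes per cell were 2238, 2295 and 2105 against 4344, 4625 and 4884, and median mitochondrial shares 4.84, 5.09 and 5.26% against 4.13, 4.17 and 4.21%. The summed UMIs per mouse ran from 415250 to 828449 on the resting and from 2672410 to 3867359 on the cycling side. Of the cycling cells 7.87, 13.3 and 11.8% had more than 60000 UMIs, and no resting cell did. The hashtag rule leaves out droplets with cells of different mice, and no doublet caller was run, so more RNA per cell and 2 cells of 1 mouse in a droplet cannot be told apart. Without the cells above 60000 UMIs 3160 genes were called, against 3689 with them. The fit was therefore made 3 ways: on all cells, on 73 cycling and 73 resting cells matched for depth within each mouse in 5 bins, and with both gates applied after every cell was thinned to 5000 UMIs.

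Cells near the gates differed less in depth than the sides as a whole. The 96 cells with a sum of 1 had a median of 8096 UMIs and the 53 cells with a sum of 2 had 10324. The 18 cells with a sum of 6 or 7 had 15307 UMIs and the 14 cells with a sum of 8 or 9 had 13637. A set of 8 DNA replication genes, held apart from the sorting genes, reached 3 UMIs in 93.3, 94.7 and 96.8% of cycling and 31.6, 32.1 and 24.1% of resting cells, so the resting side is low in mitotic RNA and not free of replication RNA. These shares were read at full depth, where deeper cells reach 3 UMIs more easily, so their gap is not one at equal depth.

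The labels held against their markers, which are a description because they chose the cells. Mki67, a protein of dividing nuclei, stood at 13.6, 8.38 and 9.84 CPM (a gene's UMIs scaled to a library total of 1000000, adjusted by edgeR's TMM factors) in resting and 694, 642 and 694 CPM in cycling cells. Top2a, the topoisomerase that untangles sister DNA, stood at 16.1, 16.8 and 17.2 against 619, 715 and 749 CPM. Il13 itself was at 3317, 3006 and 1646 CPM in resting and 1428, 1297 and 779 CPM in cycling cells, with median counts per cell of 11, 11.5 and 6 and 32, 34 and 15 UMIs. At matched depth its log2 fold change was −0.81 ± 0.09 and on all cells −1.17 ± 0.07. Il13 chose the cells, so these are a description.

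Both sides were T cells. All 9 T cell markers were detected, with summed levels of 8886, 8971 and 8985 CPM in resting and 5838, 4863 and 5206 CPM in cycling cells. Summed levels in this paragraph use plain totals without TMM factors, while levels of single genes keep those factors. Natural killer markers summed to at most 4.82 CPM, with Ncr1, Klrd1 and Klra1 at 0 on both sides. Innate lymphoid markers other than Il1rl1 summed to 117, 100.1 and 57.8 against 84.2, 75.2 and 36.4 CPM, mostly Rora (80.5, 85.2 and 54.1 against 73.00, 53.2 and 31.97 CPM), which T cells also carry, and Kit was at 0. CD8 T cell markers summed to at most 14.2 CPM. Dendritic cell markers summed to 273, 235 and 214 against 174, 153 and 130.5 CPM, nearly all of it Cst3, which many cells make, with Clec9a and Siglech at 0. Macrophage markers summed to 8.45, 20.3 and 12.04 CPM in resting and 6.36, 5.69 and 66.1 CPM in cycling cells, the high value being mouse 3, where 3 cycling cells held 3 or more such UMIs. Csf1r was at 0 on both sides. B cell markers summed to 261, 180.0 and 272 against 278, 371 and 409 CPM, with Cd79a removed by the gate and Pax5 at 0. Most of the B cell sum was Cd74 (186, 120.1 and 167 against 226, 315 and 339.8 CPM), the invariant chain of antigen presentation, which was called higher in cycling cells (log2 0.87 ± 0.15, edgeR adjusted p = 3.1e-05). Their part in the results was not tested, except that leaving out the macrophage-marked cells left 3726 genes called against 3689.

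Cycling cells made up a larger share of Il13+ cells than of cells without Il13 in every mouse. Of the Il13+ cells of mice 1, 2 and 3, 36.5, 45.4 and 54.7% were cycling, against 6.31, 7.42 and 9.67% of the cells with 0 Il13 UMIs. Deep cells pass both gates more easily, and the median depths were 12481, 13880 and 17630.5 against 6422, 6226 and 5990 UMIs. With each cell thinned to 5000 UMIs and both gates read on the thinned counts, the shares were 29.3, 38.7 and 46.4% of 184, 194 and 110 Il13+ cells and 6.14, 9.42 and 12.6% of 700, 552 and 763 cells without Il13. The 95% exact (Clopper-Pearson) intervals of the thinned shares, which cover counting error only, had their lowest Il13+ bound at 22.9% and their highest bound without Il13 at 15.1%. In both classes mouse 1 had the lowest and mouse 3 the highest share. These shares use the gated genes and are given with no test.

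**Figure D1:**
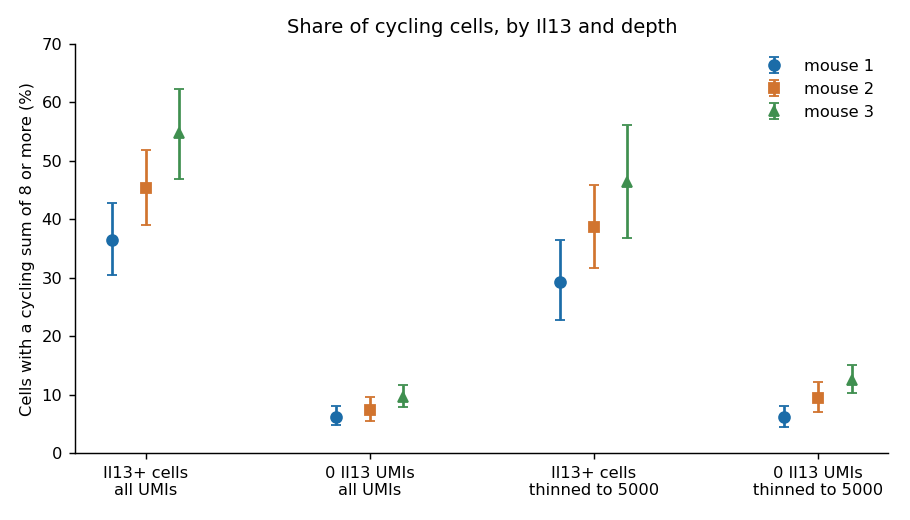
Share of cells with a cycling sum of 8 or more (y axis, percent) among Il13+ cells and cells with 0 Il13 UMIs, with all UMIs and after thinning to 5000 UMIs. Each point is 1 mouse and each bar its 95% exact binomial interval. The Il13+ shares of the 3 mice, 36.5, 45.4 and 54.7%, lie above all shares of cells without Il13, also after thinning.

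Genes of late cell cycle are known to share 2 promoter elements, the cell cycle genes homology region with the core TTTGAA and the CCAAT box bound by NF-Y, while genes of DNA replication often carry E2F sites such as TTCCCGC. The 100 bases before the start of 4 mitotic genes that were high in the cycling cells and were not used to sort them show the arrangement. Capitals mark TTTGAA and CCAAT on either strand, and the sequences are RefSeq's for GRCm38.p6.
Cdk1 (chr10:69352913-69353012, minus strand): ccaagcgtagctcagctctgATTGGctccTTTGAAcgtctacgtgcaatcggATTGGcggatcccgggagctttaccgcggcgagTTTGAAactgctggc
Cdc20 (chr4:118437344-118437443, minus strand): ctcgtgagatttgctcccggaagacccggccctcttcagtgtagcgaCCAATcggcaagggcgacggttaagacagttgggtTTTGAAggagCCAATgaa
Cks1b (chr3:89418292-89418391, minus strand): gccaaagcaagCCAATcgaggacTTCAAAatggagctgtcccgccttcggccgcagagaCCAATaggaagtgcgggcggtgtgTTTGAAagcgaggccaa
Ncapg (chr5:45669825-45669924, plus strand): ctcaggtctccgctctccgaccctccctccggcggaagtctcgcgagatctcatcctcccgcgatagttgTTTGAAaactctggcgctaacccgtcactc

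TTTGAA lay 15 bases before the start in Cdk1, 18 in Cdc20, 17 in Cks1b and 30 in Ncapg, and the first 3 also held CCAAT or its reverse, ATTGG. No CCAAT was in the window of Ncapg. In windows from 150 bases before to 50 after the start, TTTGAA on either strand was in 31 of 46 promoters of the mitosis list (67.4%), in 6 of 41 of the replication list (14.6%) and in 11.2% of all 32851 promoters. CCAAT was in 69.6% of mitosis promoters, 53.7% of replication promoters and 28.6% of all, so it was frequent in both lists. TTCCCGC was in 14 of the 41 replication promoters (34.1%), 4.35% of mitosis promoters and 3.39% of all. Promoters of the tested genes held TTTGAA in 7.14%, CCAAT in 30.5% and TTCCCGC in 6.55%. The promoters belong to 42 of the 50 mitosis genes and 34 of the 44 replication genes in the files. A match is a description of these letters and shows no binding.

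The mitosis genes outside the 8 sorting genes followed the gate. All 50 tested members, of 54 listed, were called higher in cycling cells, with a median log2 fold change of 4.60, or 4.56 with the 4 members at 0 counts in resting cells set to their bound. Across all genes tested beside the gate genes, 3689 of 8044 were called at an edgeR adjusted p under 0.05 (45.9%), 1870 higher (23.2%) and 1819 lower (22.6%), with a median of −0.03. The gate reads genes of the same programme, so its members' direction is a description and supports nothing. Cdk1, the kinase that starts mitosis, was at 7.43, 4.19 and 4.92 CPM in resting and 278, 288 and 316 CPM in cycling cells. Cenpf and Cenpe, which link chromosomes to the spindle, were at 1.24, 1.40 and 4.92 against 217, 208 and 241 CPM and at 2.48, 1.40 and 4.92 against 233, 192 and 209 CPM. Cks1b, a small partner of the cyclin-dependent kinases, was at 16.1, 29.3 and 14.8 against 337, 324 and 301 CPM, and Cdc20, an activator of the complex that ends mitosis, at 4.95, 5.59 and 9.84 against 152, 148 and 178 CPM. At matched depth 39 of 39 tested mitosis genes were still called higher.

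Replication genes, none of them used in the gate but part of the same cycle, are given as a description too. All 43 tested were called higher (median 2.87), as were 31 of 31 at matched depth (median 2.33), where 23.2% and 7.55% of all genes were. On all cells the same 31 had a median of 2.57. Rrm2, the subunit of ribonucleotide reductase that is made in S phase, stood at 6.19, 9.78 and 14.8 CPM in resting and 297, 300.5 and 353 CPM in cycling cells. Dut, which keeps uracil out of DNA, stood at 118, 133 and 138 against 708, 799 and 799 CPM, and Clspn, a replication checkpoint adaptor, at 3.71, 8.38 and 7.38 against 143, 138 and 138 CPM. Mcm3, part of the replicative helicase, stood at 38.4, 57.3 and 54.1 against 248, 284 and 286 CPM, a smaller ratio from a higher resting level. Chromatin and nuclear envelope genes were called higher in 16 of 16 cases (median 1.78), where 23.2% of all genes were. The most abundant was Hmgb2, a chromatin protein, at 664, 724 and 610.3 against 4192, 4041 and 4171 CPM. Lmnb1 and Tmpo of the nuclear lamina had log2 fold changes of 2.76 ± 0.13 and 2.65 ± 0.14, and the histone chaperone Anp32b had 1.56 ± 0.09. Of 7 tested tubulin and stathmin genes 6 were called higher and 1, Tubb2a, lower (−0.88 ± 0.27). Tuba1b, Tubb4b and Tubb5 had log2 fold changes of 3.63, 3.23 and 2.37, and Stmn1, which takes microtubules apart, 3.62. Tubulin genes are near-identical copies in part, so reads may be split among them.

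The 10 largest rises outside these lists were of genes known from the cell cycle. The gate reads the same programme, so these rises are a description. Genes without a resting count passed the low-count filter through the cycling side alone. Among them 7 had no count in any resting cell: the linker histones Hist1h1d and Hist1h1a, the mitotic kinase Nek2, the replication factor Mcm10, the kinesin Kif14, Lrr1 and Aunip. Against a floor of 3 counts over the resting group they were at least 32.3-fold, 19.1-fold, 23.5-fold, 22.2-fold, 18.2-fold, 16.1-fold and 14.1-fold higher in cycling cells. The other 3 had 1 resting count each. Ska1, of the kinetochore, gave a ratio of 128 (95% counting interval 22.9 to 5057), Sgol2a (shugoshin, which guards sister cohesion) 113 (95% counting interval 20.2 to 4467), and Trip13, of the spindle checkpoint, 88.5 (95% counting interval 15.8 to 3504). Histone genes are multi-copy, so the 2 linker histones are uncertain as single genes.

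Type 2 cytokines took a smaller share of the RNA in cycling cells. Beside Il13, 8 of 11 listed were tested (Il9, Il24 and Calca had too few counts) and all 8 were called lower by edgeR, against 22.6% of all genes, with a median log2 fold change of −1.69. For 6 of the 8 the sides did not overlap over the mice, as for 55.3% of all genes. Il4 stood at 104, 106 and 160.0 CPM in resting and 44.8, 35.2 and 31.7 CPM in cycling cells of mice 1, 2 and 3. Each cycling value was below each resting one, and the log2 fold change was −1.69 ± 0.18 (SE, n = 3 mice, edgeR adjusted p = 3.5e-08). Il5, the eosinophil growth factor, stood at 136, 62.9 and 46.8 against 44.4, 50.2 and 19.6 CPM. The sides overlapped, with little difference in mouse 2, and the fold change was −1.07 ± 0.21 (edgeR adjusted p = 1.5e-04). The call was lost without mouse 1 (−0.57) and without resting cells that had 3 or more UMIs of the replication set (−0.74). Il6, also overlapping, stood at 70.6, 90.8 and 4.92 against 39.3, 14.99 and 19.6 CPM and was lower in 2 of 3 mice (−1.27 ± 0.32). Il3, which acts on mast cell and basophil precursors, stood at 145, 144 and 155 against 37.8, 35.2 and 40.2 CPM, and Csf2 (GM-CSF) at 108, 109 and 116 against 52.8, 27.97 and 35.8 CPM. Neither overlapped, with fold changes of −1.97 ± 0.15 and −1.53 ± 0.18 (edgeR adjusted p = 5.9e-11 and 1.2e-07).

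The more abundant members fell as far. Il10, the regulatory cytokine, stood at 890.2, 785 and 822 CPM in resting and 239.9, 276 and 150.2 CPM in cycling cells (log2 −1.93 ± 0.12, edgeR adjusted p = 1.4e-12). Areg, an epidermal growth factor family ligand made by type 2 cells, stood at 2471, 1882 and 2375 against 701, 425 and 413 CPM (−2.16 ± 0.09, edgeR adjusted p = 2.5e-15). The chemokine Ccl1, a ligand of CCR8, stood at 3395, 3705 and 2646 against 968, 978 and 1063 CPM (−1.69 ± 0.09, edgeR adjusted p = 3.4e-14). In all 3 genes every cycling value lay below every resting one.

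Counted per cell, Il10 and Areg were about as many in both sides. A resting cell held 7.34, 7.21 and 6.19 Il10 UMIs on average in mice 1, 2 and 3 and a cycling cell 7.35, 9.79 and 5.86. For Areg the means were 20.4, 17.3 and 17.9 against 21.5, 15.1 and 16.1 UMIs, for Ccl1 27.98, 34 and 19.9 against 29.7, 34.7 and 41.5, and for Il4 0.857, 0.974 and 1.20 against 1.37, 1.25 and 1.24. Over the 3 mice the ratios of cycling to resting means were 1.11 for Il10, 0.949 for Areg, 1.29 for Ccl1, 1.27 for Il4 and 1.90 for Il5. The ratios of mean total UMIs per cell were 3.55, 3.61 and 4.95. The lower CPM of these genes are thus lower shares of a larger total. A few cells held much of some cytokines: the top 3 cells gave 34.5% of the resting and 30.5% of the cycling Il5 UMIs, and 29.2% and 19.7% of those of Csf2.

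**Figure D2:**
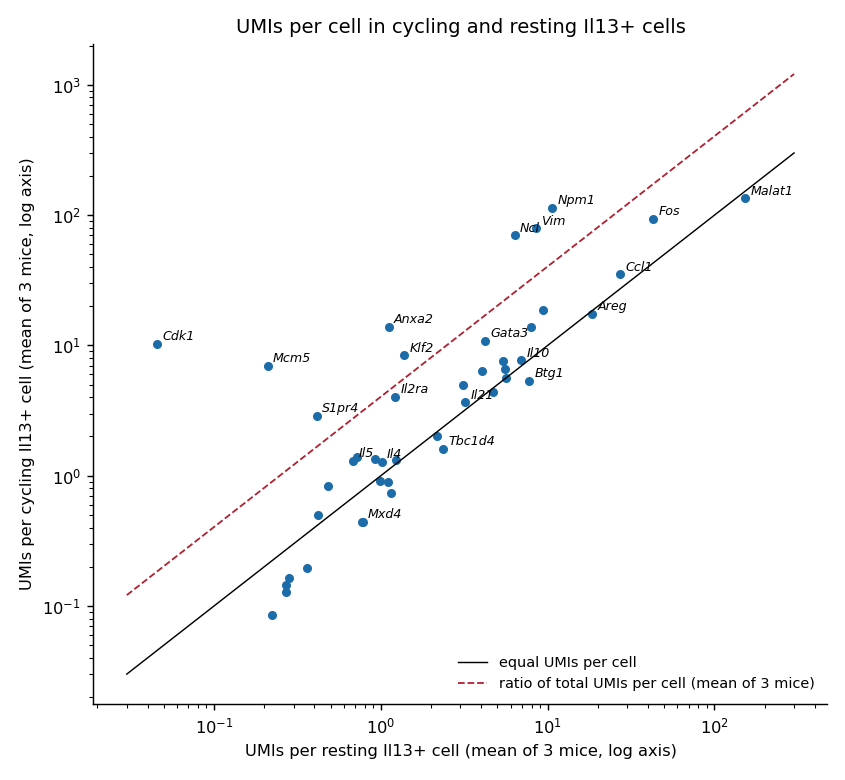
Mean UMIs per resting Il13+ cell (x axis, log scale) against mean UMIs per cycling Il13+ cell (y axis, log scale), each the mean of 3 mice, for genes described in the text and related ones. The solid line marks equal UMIs per cell and the dashed line the ratio of total UMIs. Areg, Il10 and Malat1 lie near the solid line and Vim, Npm1 and Ncl above the dashed one.

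At matched depth the median cytokine fall was smaller. Among depth-matched cells 2 of 8 were called lower (median −0.76), where 13.5% of all genes were called, 7.55% higher and 5.91% lower. The 2 were Areg (−1.09 ± 0.11, edgeR adjusted p = 5.3e-08) and Ccl1 (−0.89 ± 0.12, edgeR adjusted p = 6.1e-06). Il4, Il5, Il3 and Il10 stood at −0.75 ± 0.26, −0.76 ± 0.31, −0.65 ± 0.28 and −0.51 ± 0.19, Il6 at −0.88 ± 0.47 and Csf2 at 0.99 ± 0.45, none called (edgeR adjusted p = 0.065, 0.12, 0.14, 0.088, 0.26 and 0.18). With both gates read on cells thinned to 5000 UMIs, all 8 were called lower (median −1.25), where 18% of all genes were called lower, and Il6 had −2.15, a larger fall than on all cells. The share of cells with an Il4 UMI was 47.96, 51.3 and 68.5% in resting and 66.3, 58.4 and 62.4% in cycling cells at full depth. Thinned to 5000 UMIs it was 33.3, 42.6 and 54.1% against 20.2, 21.2 and 20.7%, so the thinned share was lower in cycling cells of all 3 mice. Among 125 thinned cells with 2 or more Cd79a UMIs (median depth 8840 UMIs), which as B cells would not make Il4, the share was 6.40%, and free RNA and droplets that hold a T cell as well cannot be told apart in it. For Areg the thinned shares were 64, 60.7 and 64.9% against 49.4, 36.3 and 55.4%, with 17.6% in the Cd79a cells.

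Genes that mark or drive type 2 T cells were also lower. Of 16 tested 13 were called lower and none higher (median −0.98), where 22.6% and 23.2% of all genes were. Ccr4, Pparg and Gfi1 were not called. Gata3, the transcription factor of type 2 cells, stood at 578, 488 and 448 CPM in resting and 331, 303 and 301 CPM in cycling cells, a log2 fold change of −0.69 ± 0.09 (edgeR adjusted p = 1.4e-06). Per cell its means were 4.77, 4.47 and 3.37 against 10.1, 10.7 and 11.8 UMIs. At matched depth it stood at −0.12 ± 0.18 (edgeR adjusted p = 0.76), not called. Il1rl1, the receptor for the alarmin IL-33, stood at 157, 116 and 78.8 against 38.5, 24.5 and 17.1 CPM (−2.14 ± 0.16, edgeR adjusted p = 7.2e-11). It remained lower at matched depth (−1.42 ± 0.27, edgeR adjusted p = 4.9e-04). In both sides mouse 1 had the highest and mouse 3 the lowest level. Plac8 stood at 1030.1, 601 and 394 against 218, 203 and 76.9 CPM (−2.03 ± 0.12) and −1.47 ± 0.19 at matched depth (edgeR adjusted p = 6.3e-13 and 4.3e-06). Maf, a transcription factor of Il4, Il10 and Il21, had −1.38 ± 0.10 and, at matched depth, −0.57 ± 0.17 (edgeR adjusted p = 4.4e-11 and 0.022). Cysltr1, a leukotriene receptor, had −1.42 ± 0.17 and was not called at matched depth (−0.31 ± 0.25). In all 5 of 12 were called lower at matched depth, with Epas1 and Igfbp7 (−1.05 and −1.13), where 5.91% of all genes were.

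Genes of follicular helper cells followed the same direction. Of 16 tested 15 were called lower and none higher (median −1.17), where 22.6% and 23.2% of all genes were. Slamf6 was not called. At matched depth 5 of 12 were called lower (median −0.39), and with gates on thinned cells 8 of 11. Of all genes 5.91% and 18% were called lower in these 2 settings. Il21, the cytokine of germinal centre help, stood at 411, 386 and 352 CPM in resting and 118, 117 and 83.2 CPM in cycling cells, without overlap (−1.85 ± 0.11, edgeR adjusted p = 9.1e-13). At matched depth it was still lower (−1.30 ± 0.18, edgeR adjusted p = 1.0e-05). Tnfsf8 (CD30 ligand) stood at 1057, 1094 and 807 against 308, 268 and 341 CPM (−1.70 ± 0.11, and −2.06 ± 0.15 at matched depth). Icos and Izumo1r, surface proteins of helper cells, had −1.43 ± 0.12 and −1.40 ± 0.14, and at matched depth −0.44 ± 0.19 and −0.69 ± 0.20, of which Izumo1r was called (edgeR adjusted p = 0.02). Pdcd1 (PD-1) stood at 152, 158 and 143 against 88.8, 86.7 and 79.9 CPM (−0.83 ± 0.13, edgeR adjusted p = 1.5e-05), and at matched depth it had −0.28 ± 0.23, not called (edgeR adjusted p = 0.53). Bcl6, the factor that directs Tfh fate, was near the limit of the counts at 26.00, 20.95 and 9.84 against 2.93, 7.49 and 4.68 CPM (−1.93 ± 0.38, edgeR adjusted p = 1.6e-04). Cxcr5 and Foxp3 had too few counts to be tested. A Cxcr5 UMI was seen in 3, 2 and 4 resting and 1, 6 and 7 cycling cells of the 3 mice, and a Foxp3 UMI in 3, 1 and 1 against 1, 2 and 0. Leaving out the Cxcr5 cells left 3565 genes called, and leaving out the Foxp3 cells 3542.

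Genes known as early targets of T cell stimulation were lower as well. Of 33 tested 32 were called lower and none higher (median −1.17), where 22.6% and 23.2% of all genes were. Dusp4 was not called. Fos, an AP-1 subunit, stood at 5564, 4846 and 5109 CPM in resting and 2939, 2519 and 2576 CPM in cycling cells (−0.95 ± 0.06, edgeR adjusted p = 1.1e-12). Its partners Junb and Jun had −1.46 ± 0.07 and −1.86 ± 0.10. Zfp36l1 and Zfp36, which mark cytokine mRNAs for decay, had −1.996 ± 0.09 and −1.55 ± 0.08. Nr4a1, an orphan receptor induced by antigen receptor signals, had −1.06 ± 0.08, and the activation antigen Cd69 −1.54 ± 0.10 (edgeR adjusted p between 2.7e-15 and 7.4e-11 for these 6). Per cell, Fos was at 45.9, 44.5 and 38.4 UMIs in resting and 90.02, 89.3 and 101 UMIs in cycling cells. At matched depth 9 of 31 were called lower (median −0.40), where 5.91% of all genes were. Among the 9 were Junb (−0.63), Jun (−0.73) and Zfp36l1 (−0.88), while Fos, Nr4a1 and Cd69 stood at −0.15 ± 0.10, −0.30 ± 0.13 and −0.14 ± 0.11. Il2, the T cell growth factor, is on this list and stood at 301, 605 and 809.7 CPM in resting and 147, 87.7 and 141 CPM in cycling cells (−2.14 ± 0.19, edgeR adjusted p = 1.0e-09). It was lower at matched depth too (−1.19 ± 0.28, edgeR adjusted p = 0.0036).

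Co-stimulatory and inhibitory receptors were called lower in 14 of 14 cases (median −1.13), and in 6 of 14 at matched depth (median −0.72). Of all genes 22.6% were called lower, and 5.91% at matched depth. Tnfrsf4 (OX40) stood at 894, 1017 and 943 CPM in resting and 390.3, 411 and 382 CPM in cycling cells (−1.27 ± 0.08, edgeR adjusted p = 4.1e-12). At matched depth it had −1.43 ± 0.15 (edgeR adjusted p = 1.0e-07). Tnfrsf18 (GITR), at 428, 360.4 and 327 against 163, 153 and 115 CPM, had −1.37 ± 0.11 and at matched depth −1.15 ± 0.19. Lag3, an inhibitory receptor, had −2.15 ± 0.12 and −1.36 ± 0.17, Cd27 −2.33 ± 0.17 and −0.996 ± 0.31, and Ctla4 −1.40 ± 0.11 and −1.08 ± 0.26. The p of these 4 at matched depth ran from 2.2e-06 to 0.035 (edgeR, adjusted). Of 17 cytokine receptor and signalling genes 15 were called lower (median −0.92), and Il7r and Il2ra of 15 at matched depth. The shares of all genes are the same 22.6% and 5.91%. Il7r, the receptor of the survival cytokine IL-7, had −1.59 ± 0.15 and −0.96 ± 0.26. The common γ chain Il2rg and the feedback inhibitors Socs1 and Socs3 had −0.89 ± 0.10, −1.38 ± 0.17 and −1.72 ± 0.21, and none of the 3 was called at matched depth. Il2ra, the α chain of the IL-2 receptor, overlapped between sides at 171, 105 and 172 against 99.8, 121 and 121 CPM and lay at the threshold (−0.37 ± 0.15, edgeR adjusted p = 0.0498). Without mouse 1 it had −0.09 and without mouse 3 −0.30, neither called. At matched depth it was lower (−1.02 ± 0.28, edgeR adjusted p = 0.013), while per cell its mean was 3.29 times that of resting cells.

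Genes of effector cells and tissue homing were called in both directions. Of 19 tested 4 were called higher and 11 lower, where 23.2% and 22.6% of all genes were, so the share called higher is near that of all genes, and at matched depth 4 and 5 of 17. The 4 higher ones were Vim, Anxa2, Lgals1 and Crip1 in both, and Lgals3 was called lower at matched depth alone. Vim, the intermediate filament vimentin, stood at 1231, 997 and 809.7 CPM in resting and 2413, 2086 and 2297 CPM in cycling cells, without overlap (1.17 ± 0.08, edgeR adjusted p = 2.4e-11). Among depth-matched cells it had 1.10 ± 0.11 (edgeR adjusted p = 6.0e-08). Anxa2, a membrane-binding annexin, stood at 116, 142 and 143 against 438, 322 and 427 CPM (1.56 ± 0.13, and 1.67 ± 0.19 at matched depth). Lgals1 (galectin-1) had 0.47 ± 0.07 and 0.38 ± 0.10, and Crip1 0.44 ± 0.08 and 1.01 ± 0.11, the last with overlapping sides. Per cell, Vim was at 10.1, 9.15 and 6.09 against 73.9, 73.9 and 89.6 UMIs. S100a4, a calcium-binding protein of motile effector cells, moved the other way, at 733, 664 and 549 CPM in resting and 272, 202 and 189 CPM in cycling cells (−1.56 ± 0.10, edgeR adjusted p = 1.1e-12). Among depth-matched cells it had −1.37 ± 0.15 (edgeR adjusted p = 4.2e-07). Its relative S100a11 had −1.53 ± 0.10 and −0.64 ± 0.14. The chemokine receptors Cxcr6 and Ccr2 were lower at −1.81 ± 0.13 and −2.18 ± 0.19, and at matched depth −0.81 ± 0.20 and −1.05 ± 0.22 (edgeR adjusted p = 0.006 and 0.0012). S100a6 fell by 0.73 on all cells and stood at −0.31 ± 0.11 at matched depth, not called.

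**Figure D3:**
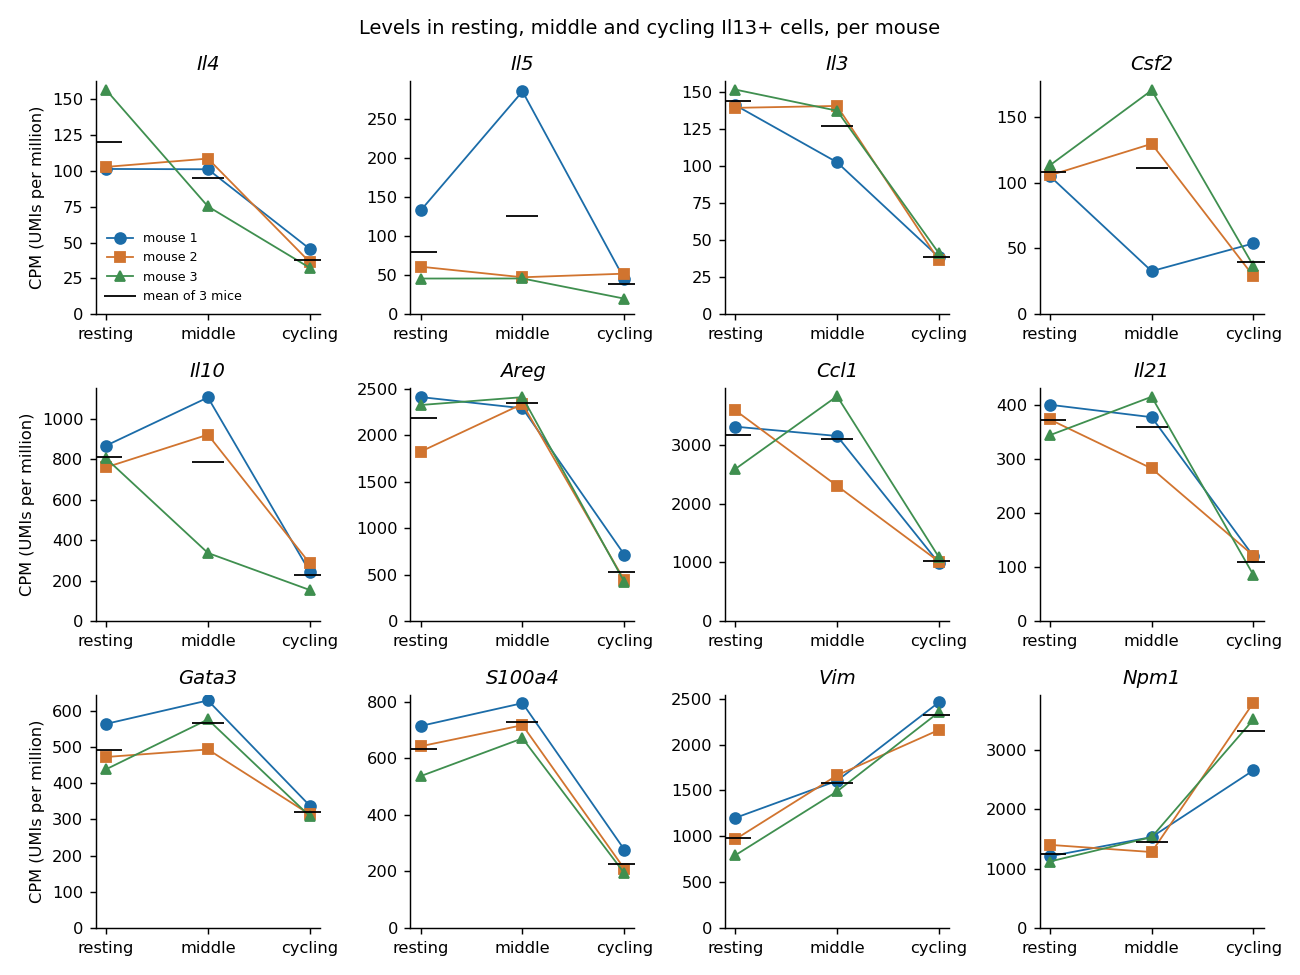
CPM (y axis, linear from 0, plain totals) of 12 genes in resting, middle (sum 2 to 7) and cycling Il13+ cells, 1 line per mouse and a bar for the mean. For Areg the means are 2185, 2344 and 526 CPM, so the middle cells lie with the resting cells, while for Vim they are 986, 1586 and 2325 CPM.

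Cells with a sum of 2 to 7 show where along the gate the levels change. Their median depths were 12354, 10816 and 12402 UMIs, between those of the sides. Areg stood at 2289, 2336 and 2408 CPM in them (plain totals), Ccl1 at 3151, 2302 and 3829 CPM and Gata3 at 629, 493 and 576 CPM, near or above the resting levels except for Ccl1 in mouse 2. Il5 and Csf2 varied between mice there, at 285, 47.4 and 45.8 and 32.8, 129.5 and 170.2 CPM. Vim, at 1605, 1664 and 1489 CPM, lay between the sides in every mouse. Of the 45 genes whose level was taken in all 3 groups, 31 had a middle mean between the means of the sides. These levels are a description with no test.

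Genes known for holding cells out of cycle were called in both directions. Of 21 tested 12 were called lower and 4 higher, where 22.6% and 23.2% of all genes were. The share called higher is thus no larger than that of all genes. At matched depth 5 and 3 of 13 were called, where 5.91% and 7.55% of all genes were. Btg1, an anti-proliferative cofactor abundant in quiescent T cells, stood at 989, 866 and 952 CPM in resting and 194, 137 and 136 CPM in cycling cells (−2.60 ± 0.10, edgeR adjusted p = 1.6e-16). It fell less at matched depth (−0.86 ± 0.14, edgeR adjusted p = 9.7e-05), and per cell it was at 8.15, 7.95 and 7.17 against 5.94, 4.85 and 5.30 UMIs. Btg2, Pdcd4 and Slfn2, all linked to quiescence, had −1.99 ± 0.09, −1.89 ± 0.14 and −1.24 ± 0.11, and −0.70 ± 0.12, −0.74 ± 0.23 and −0.71 ± 0.15 at matched depth. The kinase inhibitor Cdkn2c rose, from 21.05, 11.2 and 24.6 to 72.6, 54.4 and 60.9 CPM (1.79 ± 0.23, and 2.26 ± 0.38 at matched depth), as did Cdkn2d (0.94 ± 0.15, and 0.97 ± 0.25), the pocket protein Rbl1 (1.44 ± 0.27, not tested at matched depth) and Klf2. Klf2, a transcription factor of quiescence and recirculation, stood at 181, 133 and 187 CPM in resting and 250.2, 172 and 295 CPM in cycling cells, with overlap but higher in 3 of 3 mice (0.49 ± 0.12, edgeR adjusted p = 0.0012). At matched depth it had 0.92 ± 0.20 (edgeR adjusted p = 0.0017). S1pr4, a receptor for the egress lipid sphingosine-1-phosphate, stood at 63.1, 33.5 and 54.1 against 97.9, 66.4 and 84.1 CPM (0.74 ± 0.17, and 1.37 ± 0.31 at matched depth). In the naive and recirculation list Il7r, Satb1 (−0.93 ± 0.14) and Bach2 (−2.91 ± 0.56) were called lower, 3 were called higher, and 5 of 11 were not called. Both shares are near the 22.6% and 23.2% of all genes.

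Of 9 cyclins, kinases and regulators of G1 7 were called higher and 1 lower, and at matched depth 2 and 1 of 5. Of all genes 23.2% were called higher and 22.6% lower, and 7.55% and 5.91% at matched depth. Cdk4, the kinase of early G1, stood at 54.5, 72.6 and 68.9 against 173, 223 and 208 CPM (1.63 ± 0.14), and E2f2 and Ccnd3 had 1.81 ± 0.25 and 0.83 ± 0.13. At matched depth Cdk4 and E2f2 were called higher (0.88 ± 0.27 and 2.55 ± 0.46) and Ccnd3 was not (0.33 ± 0.23). Ccnd2, a D cyclin induced by growth signals, went against them at 534, 573 and 586 CPM in resting and 165, 157 and 168 CPM in cycling cells (−1.79 ± 0.10, edgeR adjusted p = 1.4e-13). It was also lower at matched depth (−1.61 ± 0.16, edgeR adjusted p = 5.4e-08) and on thinned cells (−1.98).

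Among genes of growth many members were called higher on all cells, and few at matched depth, where 23.2% and 7.55% of all genes were. Ribosome biogenesis genes were called higher in 18 of 20 cases (median 1.07) and in 0 of 17 at matched depth (median −0.03). Npm1, a nucleolar chaperone, stood at 1237, 1443 and 1142 CPM in resting and 2601, 3664 and 3424 CPM in cycling cells (1.33 ± 0.08, edgeR adjusted p = 5.5e-13), and at matched depth at −0.19 ± 0.11. Ncl (nucleolin) had 1.39 ± 0.08 and 0.05 ± 0.12, and Nhp2 and Nolc1, which act in RNA modification, 1.32 ± 0.13 and 1.48 ± 0.17 against −0.37 ± 0.24 and 0.23 ± 0.30. Per cell, Npm1 was at 10.2, 13.2 and 8.59 against 79.7, 129.8 and 134 UMIs. The proteasome gave 19 of 21 higher (median 0.57) and 2 of 21 at matched depth, namely Psmc1 (1.47 ± 0.18, then 1.19 ± 0.28) and Psmc3 (0.69 ± 0.12, then 0.60 ± 0.19). Nucleotide and one-carbon genes gave 16 of 20 higher and Slc3a2, Rrm2b and Tk2 lower (median 1.47), and none of 10 called at matched depth, where the median was 0.49. On all cells the same 10 had a median of 1.19. Impdh2 and Phgdh, enzymes of guanine and serine synthesis, had 1.78 ± 0.16 and 1.15 ± 0.11. The nuclear genes of the respiratory chain gave 16 of 24 higher and Ndufa1 and Uqcrh lower, with Atp5b and Cycs at 0.82 ± 0.09 and 0.82 ± 0.11, and at matched depth Cox5b was called higher and Uqcrh lower of 24. Glycolysis gave 7 of 18 higher, among them Mif (0.95, a cytokine on this list), Tpi1 (1.19), Pgam1 (1.15) and Gapdh (0.58), and none of 12 at matched depth. Of 18 sterol and lipid genes 7 were called higher, led by the fatty acid binding protein Fabp5 (2.27 ± 0.14), and 2 lower, and none at matched depth. With the gates on thinned cells ribosome biogenesis had 9 of 15 called higher and the proteasome 10 of 21, where 17.8% of all genes were.

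**Figure D4:**
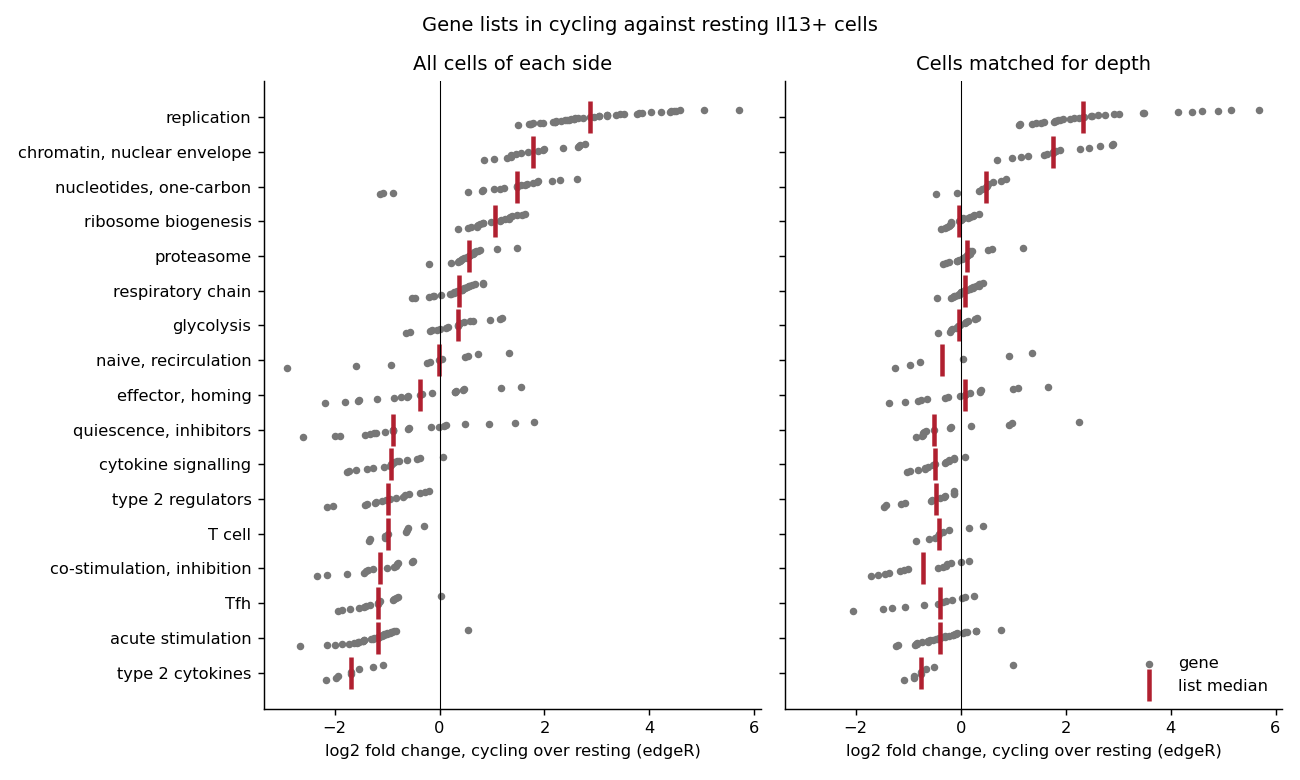
log2 fold change of each tested gene (points, x axis) and its list's median (bar) for 17 gene lists, on all cells (left) and on depth-matched cells (right). Replication genes stay right of 0 in both panels, ribosome biogenesis moves from a median of 1.07 to −0.03, and type 2 cytokines from −1.69 to −0.76. Medians are over the genes tested in each panel, which differ in part.

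The 10 largest falls were of genes with varied roles. Il17a, the type 17 cytokine, had the largest, at 204, 13.97 and 46.8 CPM in resting and 0, 2.25 and 0.276 CPM in cycling cells (−6.10 ± 0.53, edgeR adjusted p = 8.1e-10). It rested on few cells, since 6 of 230 resting cells held all 194 UMIs and 1 of them 54.6%, and it was not tested at matched depth. Tcp11l2, Bcl2l11 (the pro-apoptotic protein BIM), Acvr2a (an activin receptor) and Lpar6 (a lysophosphatidic acid receptor) had −3.47 ± 0.38, −3.11 ± 0.33, −2.90 ± 0.33 and −2.78 ± 0.30. Kdm5b, a histone demethylase, had −2.90 ± 0.26 and the proteinase inhibitor-like Ctla2a −2.88 ± 0.19. Mxd4, a partner of MAX that opposes MYC, stood at 104, 92.2 and 81.2 CPM in resting and 16.9, 10.7 and 11.02 CPM in cycling cells (−2.86 ± 0.19, edgeR adjusted p = 7.1e-12). It remained lower at matched depth (−1.89 ± 0.34, edgeR adjusted p = 2.5e-04). Neurl3 had −2.70 ± 0.18 and −1.22 ± 0.33, and Tbc1d4, a regulator of membrane traffic and glucose uptake, stood at 232, 268 and 364 against 44.02, 33.97 and 58.4 CPM (−2.67 ± 0.14, and −1.06 ± 0.26 at matched depth). Kdm5b, Ctla2a, Mxd4, Neurl3 and Tbc1d4 were tested at matched depth and called lower there. They were chosen for their falls in the same cells, so this is a description. The nuclear RNA Malat1, the most abundant transcript named here, stood at 18144, 18544 and 18669 CPM in resting and 4256, 4096 and 3258 CPM in cycling cells (−2.26 ± 0.06), but per cell at 149.5, 170.2 and 140.5 against 130.4, 145 and 127 UMIs, and had −1.01 ± 0.08 at matched depth.

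Genes of other helper fates were few and mostly lower. Of 5 tested regulatory T cell genes 4 were called lower, with Tnfrsf9 at −1.76 ± 0.25 and Ikzf2 at −1.70 ± 0.31. Of 5 Th1 and cytotoxic genes 4 were called lower. Of all genes 22.6% were. At matched depth 2 of 5 and 3 of 4 were called lower, where 5.91% of all genes were. Tnfrsf9 was called there (−1.71 ± 0.41) and Ikzf2 was not (0.009 ± 0.42, edgeR adjusted p = 0.99). Gzmb (granzyme B) stood at 230.3, 584 and 155 CPM in resting and 131, 149 and 20.9 CPM in cycling cells, and Nkg7 at 177, 54.5 and 199 against 53.2, 21.98 and 15.2 CPM (−1.72 ± 0.20 and −2.20 ± 0.26), and both were also lower at matched depth (−1.34 ± 0.25 and −1.17 ± 0.30). Without the resting cells that had replication RNA Gzmb stood at −0.55 and Tnfrsf9 at −0.88, neither called. Ifng, at 91.6, 112 and 49.2 against 46.95, 26.97 and 46.3 CPM, came from 10 resting and 24 cycling cells (−1.16 ± 0.23). At matched depth Ifng had −0.16 ± 0.51, not called (edgeR adjusted p = 0.89). Ifi27l2a, induced by interferon, had the largest fold change among 5 tested interferon genes, at 2963, 2126 and 2385 against 638, 501 and 394 CPM (−2.29 ± 0.09, and −1.31 ± 0.14 at matched depth). Isg15 was lower on all cells (−1.33 ± 0.20) and stood at 0.03 ± 0.38 at matched depth. Among apoptosis genes 6 of 11 were called lower and 2 higher, where 22.6% and 23.2% of all genes were. The anti-apoptotic Bcl2a1b and Mcl1 had −1.44 ± 0.09 and −0.66 ± 0.11 and the death receptor Fas −2.06 ± 0.36. Hdc, which makes histamine and was the 1 tested gene of the mast cell and basophil list, stood at 368, 205 and 150.1 against 82.9, 46.5 and 33.1 CPM (−2.15 ± 0.13, edgeR adjusted p = 8.1e-13), while the basophil and mast cell markers Fcer1a, Ms4a2, Gata2 and Prss34 were at 0 on both sides. T cell identity genes took a smaller share too, with 9 of 9 called lower (median −0.99), where 22.6% of all genes were. At matched depth 5 of 9 were called lower and 1 higher, where 5.91% and 7.55% of all genes were. Cd3g and Cd4 had −1.33 ± 0.07 and −1.34 ± 0.12, and −0.60 ± 0.10 and −0.85 ± 0.20 at matched depth. The receptor genes Trac and Trbc1 had −0.63 ± 0.09 and −0.62 ± 0.09, and at matched depth 0.16 ± 0.15 and 0.43 ± 0.13, the last called higher (edgeR adjusted p = 0.026).

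Over all genes, most differences kept their sign at matched depth and were smaller. Of the 1870 genes called higher, 1249 could be tested at matched depth, where 312 were called higher again, 1058 had the same sign and 4 were called lower. Their median log2 fold change was 0.80 on all cells and 0.36 at matched depth. Of the 1819 called lower, 1226 could be tested, 211 were called lower again, 1103 had the same sign and 3 were called higher, with medians of −0.80 and −0.39. With gates on thinned cells 692 of 1255 and 659 of 1110 were called again in the same direction. The matched sums held between 14 and 34 cells a side, and fewer UMIs limit what can be called. Cells chosen for equal depth are the deepest resting and the shallowest cycling cells, so matching also changes which cells are compared.

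Whether cycling went with the same changes in cells without Il13 was tested as a difference of differences. The comparison fixed for this used cells with 0 Il13 and 2 or more Il4 UMIs, of which 5, 7 and 17 per mouse were cycling and 24, 36 and 48 resting. Of 5345 genes 25 were called (0.468%), all with the change in Il13+ cells below that in the Il4+ cells, and 500 had an unadjusted p under 0.05. The 5 largest were Gzmb (−5.75 ± 1.28), Ctla2a (−4.09 ± 0.66), Ifitm2 (−3.42 ± 0.47), Cysltr1 (−2.71 ± 0.52) and Csf1 (−2.41 ± 0.54), with edgeR adjusted p between 0.0017 and 0.049. Some Il4+ sums had no count of these genes, so the sizes are uncertain. Gzmb was at 0 CPM on both sides of mouse 2, Ctla2a in cycling cells of mouse 2 and Csf1 in those of mouse 1. Leaving out mouse 1 gave 88 calls, mouse 2 gave 6 and mouse 3 gave 3, and in the last case Csf1 turned to 0.23, so these results depend on single mice. Of the 12 genes of type 2 and Tfh function that the naming rule always takes, 10 were tested against the Il4+ cells and none was called (edgeR, 3 at an unadjusted p under 0.05, and the smallest adjusted p was 0.13). Il3 had −2.74 ± 0.75. Il4, which is among these 10, had 0.03 ± 0.31, but it chose the reference cells, so its value is a description. Resting reference cells held Il4 at 374, 351 and 361 CPM, and resting Il13+ cells at 104, 104 and 161 CPM.

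With all cells of 0 Il13 UMIs as the reference, an alternative chosen after seeing the data, each side held at least 54 cells a mouse. Resting reference cells held Cxcr5 at 44.8, 44.1 and 55.6 CPM, against 6.29, 2.80 and 12.1 CPM in resting Il13+ cells. Gata3 stood at 164, 133 and 137 against 588, 488 and 442 CPM, and Pdcd1 at 118, 97.1 and 138 against 155, 158 and 141 CPM. Cells without Il13 here means 0 counted UMIs, which need not be absence of the RNA. The part of these differences in the calls was not tested. Of 9329 genes 374 were called (4.01%), 329 with the change in Il13+ cells lower (3.53%) and 45 with it higher (0.482%). Vim was higher in the cycling cells of all 3 mice in both classes, at 1251, 999 and 799 CPM in resting against 2431, 2112 and 2353 CPM in cycling Il13+ cells and at 234, 207 and 187 against 663, 1206 and 1107 CPM in cells without Il13. The difference was −1.08 ± 0.22 (edgeR adjusted p = 0.0048), so the fold was smaller in Il13+ cells, from a higher resting level. Lgals1 stood at 329.8, 326 and 313 against 786, 1206 and 1297 CPM without Il13 and 1717, 1624 and 1575 against 2633, 2039 and 2255 CPM with it (difference −1.27 ± 0.17, edgeR adjusted p = 7.9e-05). S100a4 stood at 69.5, 97.7 and 134 CPM in resting and 79.3, 68.7 and 158 CPM in cycling cells without Il13, with no common direction over the mice, and was lower in cycling Il13+ cells of all 3 mice (difference −1.65 ± 0.30, edgeR adjusted p = 0.0019). S100a6 had a difference of −1.43 ± 0.29 and Ctla2a of −3.47 ± 0.31. Il2 stood at 206, 351 and 247 against 229.8, 235 and 370.2 CPM without Il13, and the difference was −2.15 ± 0.30 (edgeR adjusted p = 1.0e-04). Tnfrsf4 stood at 461, 425 and 407 against 381, 368 and 538 CPM (−1.25 ± 0.15, edgeR adjusted p = 2.4e-05). The resting Il13+ cells, at 909, 1018 and 929.7 CPM, stood above all the others, while cycling Il13+ cells were at 393, 416 and 391 CPM. Tyms (thymidylate synthase), a replication gene, stood at 62.9, 47.6 and 36.4 CPM in resting and 271, 269.6 and 289 CPM in cycling Il13+ cells and at 18.9, 20.04 and 18.8 against 349, 312 and 311 CPM without Il13 (difference −1.63 ± 0.20, edgeR adjusted p = 3.0e-05). Klf2 differed in the other direction, with a difference of 1.002 ± 0.21 (edgeR adjusted p = 0.0078), at 384, 309 and 274 against 200.4, 201 and 292 CPM without Il13. In the comparison with Il4+ cells Il2, Tnfrsf4 and Klf2 had −0.57 ± 0.77, −0.78 ± 0.22 and 0.43 ± 0.32 and were not called (edgeR adjusted p = 0.88, 0.17 and 0.72). Of the 12 genes always named 11 were tested against cells with 0 Il13 UMIs and 6 were called, all with the lower change in Il13+ cells, namely Il3 (−2.87 ± 0.53), Il21 (−0.96 ± 0.19), Gata3 (−0.80 ± 0.19), Il1rl1 (−1.91 ± 0.50), Il4 (−0.94 ± 0.26) and Il10 (−1.34 ± 0.37), with edgeR adjusted p from 0.0024 to 0.039. Of these Il10 alone was called after thinning to 5000 UMIs. After that thinning 80 genes were called, among them Vim, Lgals1, S100a4, S100a6, Ctla2a, Il2, Tnfrsf4 and Tyms, and Klf2 was not (edgeR adjusted p = 0.071).

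**Figure D5:**
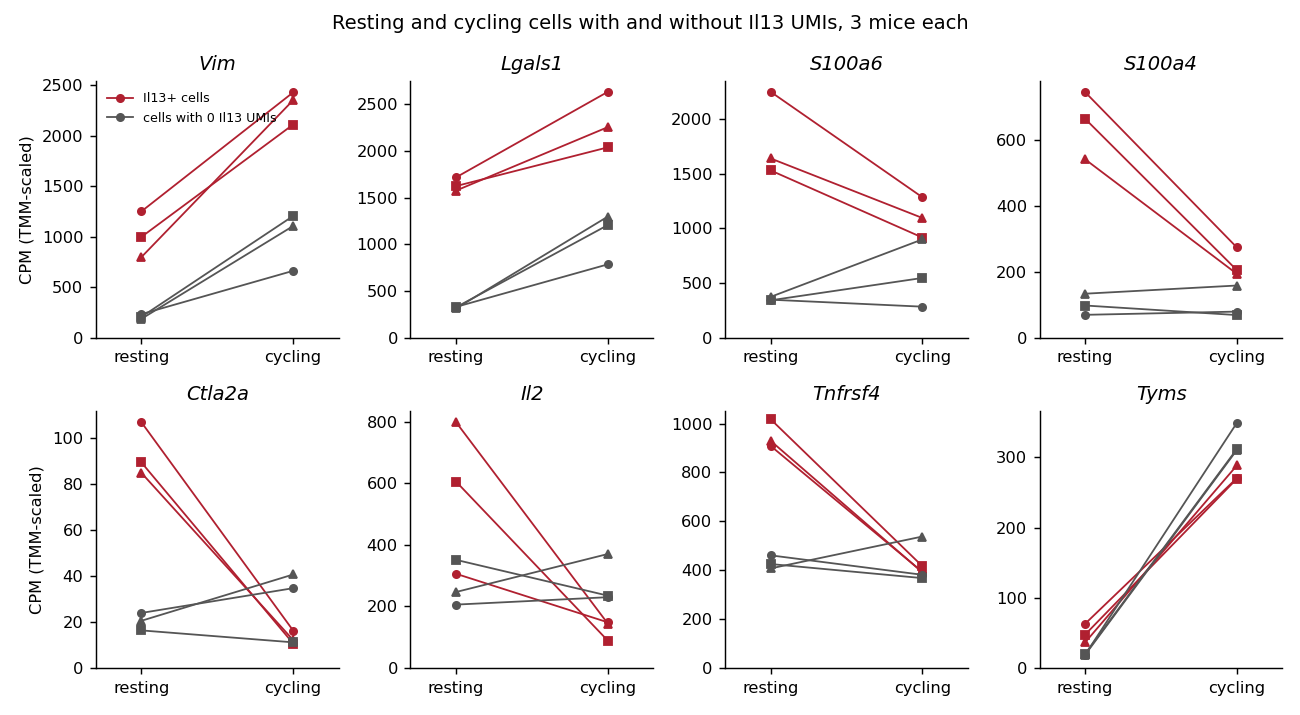
CPM (y axis, linear from 0, TMM-scaled) of 8 genes in resting and cycling cells, red for Il13+ cells and grey for cells with 0 Il13 UMIs, 1 line per mouse. Vim is higher in cycling cells of both classes, S100a4 is lower in cycling than in resting Il13+ cells, and the lines of cells without Il13 for S100a4 and Tnfrsf4 share no direction.

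The p-values come from 3 mice, whose sides were paired by mouse in the fit, which left 2 residual degrees of freedom per gene. Each gene's spread is estimated by edgeR in part from the other genes, so the p-values do not measure the mice's spread alone. On counts simulated from these sums with 200 of 8053 genes changed, the same fit recovered 66.5% of 2-fold and 94.5% of 4-fold changes, with 12 and 5 false calls (8.28% and 2.58% of calls). In the data 45.9% of genes were called, far more than were changed there, and the simulation gave all mice the same means. Its rates therefore need not hold for these data.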

How the data were processed

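Libraries were made with 10x Genomics version 3 chemistry, per the labels' protocols. The authors deposited raw UMI counts per gene and barcode, and hashtag antibody counts per barcode, whose counting as reads or molecules is not given in the sources used here. Cell Ranger 2.2.0 with bcl2fastq 2.18.0.12 and 2.20.0.422 is listed in the submitters' processing notes, but the deposited matrix header records software version 3.0.2; an aligner setting is not given in the sources used here.

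Gated cells were summed per mouse and side, 6 sums in all. edgeR 4.0.16 (R 4.3.3) fitted the counts with its quasi-likelihood test after filterByExpr (minimum count 10) and TMM scaling, with the mouse as a block because each mouse gave both sides. Adjusted p-values are Benjamini-Hochberg values over all genes tested, and a gene was called under 0.05. With 3 mice an exact paired test of a single gene cannot go below 0.25. The 9 gate genes are left out of every count of called genes. Fold changes are log2 values of cycling minus resting, with standard errors, computed with a prior count of 0.125. Each standard error is the absolute log2 fold change divided by the square root of the test's F statistic. The simulated data for the check of the fit were drawn from the real means.

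Whether the effect of cycling differs was tested as an interaction over 12 sums. For depth matching, equal numbers of cells of both sides were drawn per mouse in 5 bins of total UMIs. Thinning drew 5000 UMIs from each cell and left out shallower cells.

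The gates, gene lists and tests were chosen with earlier results of these data known. The genes named are 12 fixed ones, the 10 largest rises and 10 largest falls at 20 CPM or more outside the cell cycle lists with 1 direction in 3 of 3 mice, up to 4 members of each list by adjusted p, and the 5 largest interactions. Others were chosen after their values were seen, among them Vim, Anxa2, Lgals1, Crip1, Klf2, S1pr4, Il2, Il2ra, Fos, Cd69, Nr4a1, Ccr2, Ctla4, Malat1 and Cdkn2c, the members named to complete a count, and all genes of the comparison with 0 Il13 UMIs. DESeq2 1.42.0, other scalings, filters and gates were tried as alternatives. A few genes that the rule takes are not reported here. The Tfh sort was used only to count barcodes.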

Additional observations from a re-analysis of the deposited data

Results flagged for a closer look

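The change between resting and cycling cells differed between Il13+ cells and Il4+ cells without Il13 by a test of the difference itself for 25 genes. The 5 largest at 20 CPM or more had log2 differences of −5.75 for Gzmb, a cytotoxic granule protease, −4.09 for Ctla2a, −3.42 for Ifitm2, an interferon-induced membrane protein, −2.71 for Cysltr1, the leukotriene receptor, and −2.41 for Csf1, the macrophage growth factor. In each case the change in Il13+ cells was the lower one. In the Il4+ cells Gzmb stood at 10.8, 0 and 3.11 CPM in resting and 78.7, 0 and 63.7 CPM in cycling cells of mice 1, 2 and 3. Ctla2a was at 0 CPM in cycling Il4+ cells of mouse 2 and Csf1 in those of mouse 1, so the sizes of these differences are uncertain. The Il4+ side held 5, 7 and 17 cycling cells, and the part of this small number in the values was not tested. Against all cells with 0 Il13 UMIs Gzmb had −2.84 ± 0.85 and was not called (edgeR adjusted p = 0.062). After thinning Gzmb was called against them (−3.11 ± 0.76, edgeR adjusted p = 0.025). Cysltr1 was called against them (−1.88 ± 0.37, edgeR adjusted p = 0.0044) but not after thinning (−1.46 ± 0.55, edgeR adjusted p = 0.28). Ctla2a, Ifitm2 and Csf1 were called against them with and without thinning.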

How the results depend on the processing

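The count of genes that differed between cycling and resting Il13+ cells, 3689, was 2183 with DESeq2, 574 at matched depth, 1682 on cells thinned to 5000 UMIs and 1426 with the gates on thinned cells. The last 3 hold fewer UMIs and test fewer genes. It stayed within 1.5 times under the other scalings, filters, gates and cell exclusions, and leaving out each mouse gave 2911 to 3286. Library sizes counted without the cell cycle lists and without TMM moved the median of all genes from −0.03 to 0.09 and the share of calls that were higher from 50.7% to 59.5%, so changes near that shift depend on scaling. Without the pairing by mouse (no replicate block) 3654 genes were called, and 11 in place of 25 for the difference from Il4+ cells.

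Of the named genes' values under the alternatives to the first comparison, 2999 kept direction and call, 80 lost the call and 10 changed sign, and the cause was not tested. At matched depth Csf2 had 0.99, Ikzf2 0.0094, Mif −0.10, Pgam1 −0.16, Npm1 −0.19, Nhp2 −0.37, Isg15 0.027, Trac 0.16 and Trbc1 0.43, and with gates on thinned cells Ifng had 0.34.

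The 25 genes of the difference from Il4+ cells became 43 with DESeq2, 58 without a filter on low counts, 11 after thinning, 374 against all cells with 0 Il13 UMIs and 80 against those thinned, and 3 to 88 with 1 mouse left out. Il4, at 0.03, had −0.015 with DESeq2, between −0.15 and 0.19 with 1 mouse left out (−0.022 without mouse 2), −0.94 against cells with 0 Il13 UMIs and −0.34 after thinning. Because Il4 chose the Il4+ reference cells, its values against them are a description. With 1 mouse left out Csf1 ranged from −3.05 to 0.23 and Il2 from −2.29 to 0.55, the positive values without mouse 3. Il10 ranged from −1.53 to 0.84 and Il21 from −0.40 to 0.36 in the same way, and Il21, at −0.07, had 0.043 without a filter on low counts, 0.096 after thinning and 0.25 without Cxcr5 cells. The cause was not tested. The Il13+ sides held between 54 and 113 cells a mouse. The Il4+ sides held 5, 7 and 17 cycling and 24, 36 and 48 resting cells. Such numbers limit what could be called for rare transcripts.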
